A study of Homo sapiens with 4 samples.

Results

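HLA class I molecules were followed here through 9 genes: the heavy chain genes HLA-B, HLA-C, HLA-E and HLA-F, the light chain gene B2M, the peptide transporter genes TAP1 and TAP2, the loading chaperone gene TAPBP and the regulator gene NLRC5. A gene counted as measured where the array's gene table names a probe set for it, and the probe set with the highest mean was to be used if there were several. This gave 8 of the 9 genes, each with 1 probe set, among 21448 probe sets tested in all. HLA-B has no probe set under its symbol in that table and was not analysed here. The cells were 786-O (CRL-1932 in the labels), a line grown from a human clear cell kidney carcinoma. The treated cells were exposed to recombinant MCP-1, the chemokine CCL2, at 5 ng/mL for 16 h by the labels, although the study's text gives a longer time. The untreated cells were of the same passage and had no MCP-1. Both groups were grown in RPMI1640 medium with serum, each was 2 dishes of 1 cell line, and each dish was hybridized to 1 Clariom S array. The p-values below therefore refer to dishes of that line only. Those from limma drew their variance mostly from all probe sets together, since 1 residual degree of freedom was left for each gene.

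Class I molecules carry short peptides from inside the cell to its surface, where CD8 T cells and natural killer cells read them. Peptides cut by the proteasome are pumped into the endoplasmic reticulum (ER) by the transporter of TAP1 and TAP2, and tapasin, the product of TAPBP, holds the empty heavy chain with its light chain beside that transporter until a peptide binds. Most of these genes share promoter elements bound by interferon regulatory factors (IRF), NF-κB and the complex that recruits NLRC5, and are known as targets of interferon-γ. Loss of class I or of its loading proteins is a known route by which tumours avoid T cells.

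The promoter elements are shown first, since they are what these genes share beyond the function by which they were chosen. RefSeq promoter windows (GRCh38.p14, 250 bases before to 50 bases after the start site) were given for 7 of the 9 genes, not for HLA-E or NLRC5. Capitals mark matches, on either strand, to IRF elements (GAA, any 2 bases, then GAAA, or GAAA, any 2 bases, then GAAA), to the NF-κB consensus, to the X2 box TGACGC and to the CCAAT box. For the 6 measured genes with a window, the stretch around the IRF element reads as follows, 5′ to 3′ on the strand of the gene.
HLA-C, chr6:31272137-31272272, minus strand: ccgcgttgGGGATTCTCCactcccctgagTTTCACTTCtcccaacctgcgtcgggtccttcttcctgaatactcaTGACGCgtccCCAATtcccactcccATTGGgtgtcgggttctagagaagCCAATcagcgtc
HLA-F, chr6:29723254-29723389, plus strand: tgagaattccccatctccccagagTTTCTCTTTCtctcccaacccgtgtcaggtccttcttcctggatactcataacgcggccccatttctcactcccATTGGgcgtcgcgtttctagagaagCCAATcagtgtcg
B2M, chr15:44711367-44711477, plus strand: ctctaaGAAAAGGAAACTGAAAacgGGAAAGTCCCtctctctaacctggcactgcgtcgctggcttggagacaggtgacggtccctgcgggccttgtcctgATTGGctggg
TAP1, chr6:32853759-32853844, minus strand: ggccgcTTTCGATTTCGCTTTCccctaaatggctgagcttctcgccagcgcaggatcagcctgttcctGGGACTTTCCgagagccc
TAP2, chr6:32838759-32838814, minus strand: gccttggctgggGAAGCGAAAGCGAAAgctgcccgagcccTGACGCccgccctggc
TAPBP, chr6:33314075-33314143, minus strand: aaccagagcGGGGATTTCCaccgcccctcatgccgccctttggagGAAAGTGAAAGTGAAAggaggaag
The longer IRF element was found for 5 of the 7 genes (HLA-F, B2M, TAP1, TAP2 and TAPBP), in 5 of their 8 windows, against 3.57% of all 35116 RefSeq promoter windows of the same length. The shorter one was added after the sequences had been read, so its match in HLA-B, HLA-C and TAP2 only describes them. TAP1 had 2 windows, of which the one with the element is printed. TAP2 held both spacings, overlapping each other, and in TAP1, TAPBP and B2M 2 matches of the longer form overlapped. The NF-κB consensus was found for 5 genes (HLA-B, HLA-C, TAP1, TAPBP and B2M), against 11.3% of all windows, the CCAAT box for 5 (HLA-B, HLA-C, HLA-F, B2M and TAP1), against 34.6%, and the X2 box for 3 (HLA-B, HLA-C and TAP2), against 9.14%. These counts cover whole windows. The CCAAT box of TAP1, at -249 to -245 from the start site, lies outside the stretch printed. A match describes the letters and does not show binding.

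The values are log2 signals that the authors normalized across the arrays, so that a difference of 1 is a doubling. Differences are given as MCP-1-treated minus untreated and come from limma. Equal replicate numbers formed a block, because the study's methods used a paired test. Adjusted p-values are those of Benjamini and Hochberg, taken across the 21448 probe sets. A signal is called above background where it passes the 90th percentile of 612 negative control probe sets on its own array, which was 6.36 and 6.70 in MCP-1-treated cells and 6.48 and 6.37 in untreated cells. The array medians lay between 6.20 and 6.28. The array of MCP-1-treated replicate 2 stood somewhat apart, with r of 0.9929 to 0.9933 against each other array, while the remaining 3 gave r of 0.9945 to 0.9951 among themselves (across probe sets of single arrays). Of the renal and epithelial markers PAX8, PAX2, KRT8, KRT18, VIM, EPAS1 and CDH6, 7 of 7 were above background, against 0 of 9 leukocyte markers, 0 of 6 endothelial markers and 1 of 6 fibroblast markers, COL1A2.

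The classical heavy chain gene HLA-C and the light chain gene B2M had bright signals in MCP-1-treated and in untreated 786-O cells, and no gene of the class I pathway passed the test in either direction. Of the 8 measured genes, 0 rose and 0 fell at an adjusted p under 0.05 from limma (0.0326% of all probe sets passed), and 0 passed an unadjusted p under 0.05 (4.95% of all probe sets), by limma or by the methods' t-test. The log2 fold changes ran from -0.03 for B2M to 0.27 for TAP2, with a median of 0.034, against a median of 0.013 over all probe sets tested. For the 7 genes above background on all arrays the 95% confidence interval of the difference lay within a 2-fold change either way, as it did for 93.8% of the 10012 probe sets above background on all arrays, and for HLA-C, HLA-E, B2M and TAP1 it lay within a 1.5-fold change either way, as it did for 14.6%. With 2 arrays a group, changes within these intervals were not resolved, and larger ones could also fail the adjusted threshold. In the same fit 2 genes outside the 8, IRF1 and XAF1, had folds of 0.466 and 0.406. Their adjusted p from limma were 0.551 and 0.561, while 7 of all 21448 probe sets passed. In such bulk RNA fewer cells expressing a gene and less RNA per cell cannot be told apart.

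HLA-C, whose product presents peptides to T cells and is read by killer cell immunoglobulin-like receptors, had log2 signals of 13.76 and 13.59 in MCP-1-treated cells, against 13.78 and 13.57 in untreated cells. The groups overlapped, and in each of them replicate 1 was the higher array. The means were 13.67 ± 0.119 in MCP-1-treated cells and 13.68 ± 0.155 in untreated cells (SD, n = 2 each), and the interval of the fold ran from 0.689 to 1.45 (limma, adjusted p = 1.0).
HLA-E, a ligand of the natural killer cell receptor NKG2A that displays leader peptides of other class I chains, had 11.34 and 11.19 in MCP-1-treated cells, against 11.35 and 11.14 in untreated cells. Here too the groups overlapped, with replicate 1 above replicate 2 by 0.15 in MCP-1-treated and by 0.20 in untreated cells, both more than the log2 fold change of 0.02 (standard error 0.24).
HLA-F, a heavy chain with limited polymorphism that is also found without peptide, had 11.78 and 11.28 in MCP-1-treated cells, against 11.28 and 11.63 in untreated cells. The replicates ran in opposite orders in the 2 groups. The difference between MCP-1-treated and untreated cells was 0.50 in replicate 1 and -0.35 in replicate 2. Its log2 fold change of 0.08 had the widest standard error of the 8 genes, 0.28, and its fold interval ran from 0.691 to 1.61. The heavy chain genes are close to one another in sequence, and the files used here do not say whether a probe set also binds transcripts of a relative, so the 3 values may not be fully separate.

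B2M, the gene of β2-microglobulin, which every class I heavy chain needs to reach the surface, had log2 signals of 16.08 and 16.43 in MCP-1-treated cells, against 16.25 and 16.32 in untreated cells. The MCP-1-treated arrays enclosed the untreated ones, with the lowest and the highest of the 4 values. The means were 16.25 ± 0.246 in MCP-1-treated cells and 16.28 ± 0.0529 in untreated cells (SD, n = 2 each), a fold of 0.978 with an interval from 0.670 to 1.43.

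**Figure D1:**
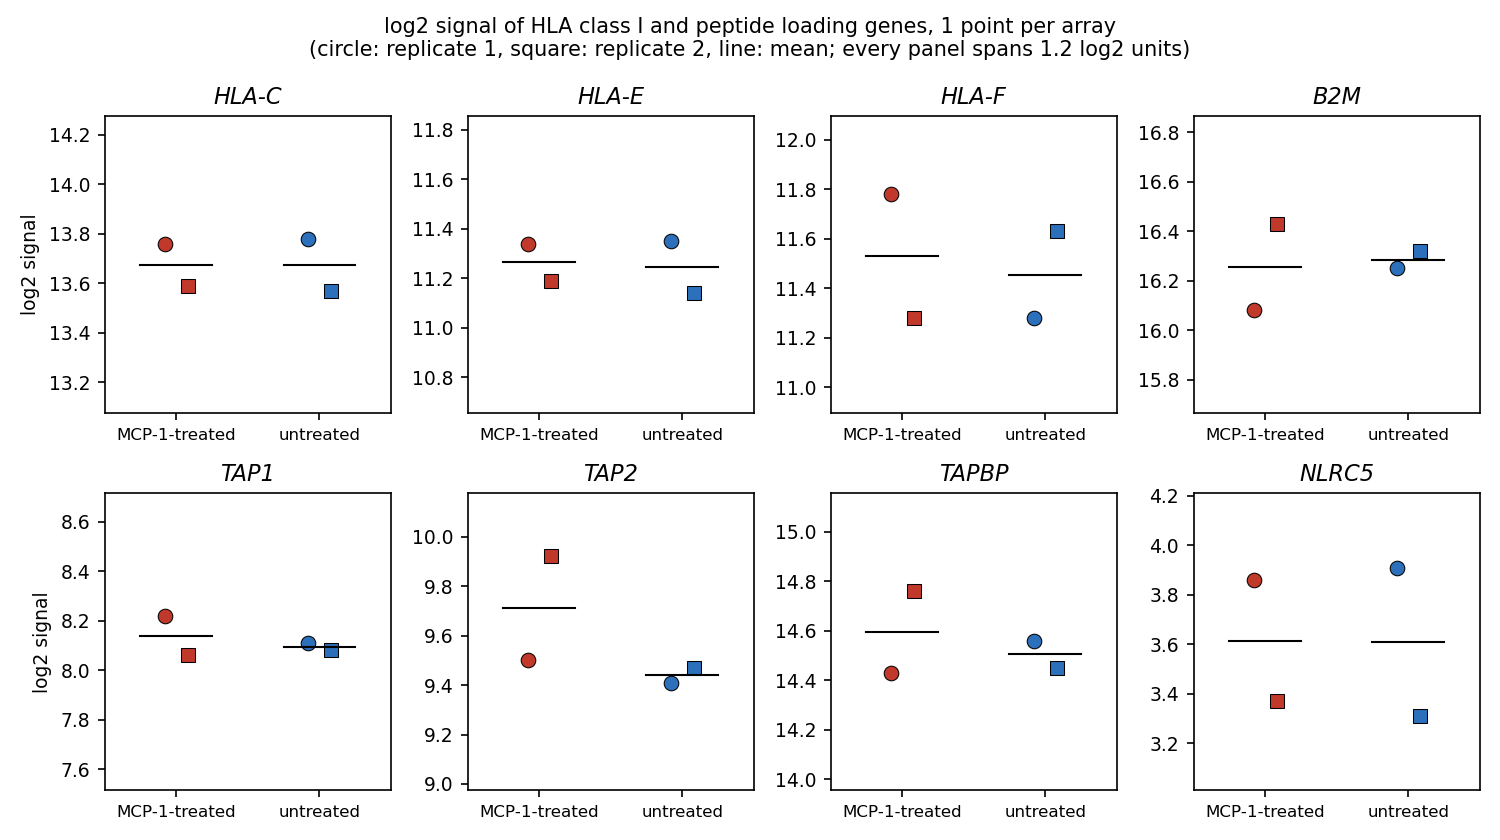
The log2 signal of each of the 8 measured genes is plotted for MCP-1-treated cells (red, left) and untreated cells (blue, right), with replicate 1 as a circle, replicate 2 as a square and the mean as a line. Each panel has its own axis, which does not start at 0, over the same span. The groups overlap in 7 panels, and in the TAP2 panel both MCP-1-treated arrays, 9.50 and 9.92, lie above the untreated ones.

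TAP1, a subunit of the peptide transporter, had log2 signals of 8.22 and 8.06 in MCP-1-treated cells, against 8.11 and 8.08 in untreated cells. The spread of the MCP-1-treated arrays covered that of the untreated ones, and the log2 fold change was 0.05 (standard error 0.24, fold interval 0.710 to 1.50).
TAP2, the other subunit, had 9.50 and 9.92 in MCP-1-treated cells, against 9.41 and 9.47 in untreated cells. It was the 1 gene of the 8 whose groups did not overlap, with both MCP-1-treated arrays above, whereas the groups did not overlap for 31.6% of all probe sets, 16.3% with the MCP-1-treated arrays above. Its log2 fold change was 0.27 (standard error 0.25, 95% interval -0.28 to 0.82, unadjusted p = 0.304 and adjusted p = 1.0 from limma), and 71.2% of probe sets had a smaller change. MCP-1-treated replicate 2 decided that value: in a fit lacking this array and the block it was 0.06. In one lacking MCP-1-treated replicate 1 and the block it was 0.48.
TAPBP, the gene of tapasin, had 14.43 and 14.76 in MCP-1-treated cells, against 14.56 and 14.45 in untreated cells. The MCP-1-treated arrays were again the lowest and the highest of the 4. The log2 fold change was 0.09 (standard error 0.25, fold interval 0.722 to 1.56), and -0.08 in a fit lacking MCP-1-treated replicate 2 and the block.

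NLRC5, the transactivator that is recruited to class I promoters, had log2 signals of 3.86 and 3.37 in MCP-1-treated cells, against 3.91 and 3.31 in untreated cells. On 4 of 4 arrays it was below background as defined above, and the other 7 genes were above background on every array. The equal means of 3.61 in MCP-1-treated cells and 3.61 in untreated cells are therefore background values, and say nothing of a change in NLRC5.

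Across the genes, the difference between the groups was often smaller than the difference between dishes of a group. The direction of the MCP-1 difference was the same in both replicate pairs for 1 of the 8 genes, TAP2, against 47.3% of all probe sets. Replicates 1 and 2 differed in the same direction in both groups for 6 of the 8 (HLA-C, HLA-E, B2M, TAP1, TAP2 and NLRC5), against 48.6% of all probe sets. For 4 of them, HLA-C, HLA-E, B2M and NLRC5, that difference exceeded the log2 fold change in both groups, against 20.5% of all probe sets. These shares are descriptions, since the genes were chosen as one pathway and are not independent. Replicate 1 was the higher array for HLA-C, HLA-E, TAP1 and NLRC5, and the lower one for B2M and TAP2.

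**Figure D2:**
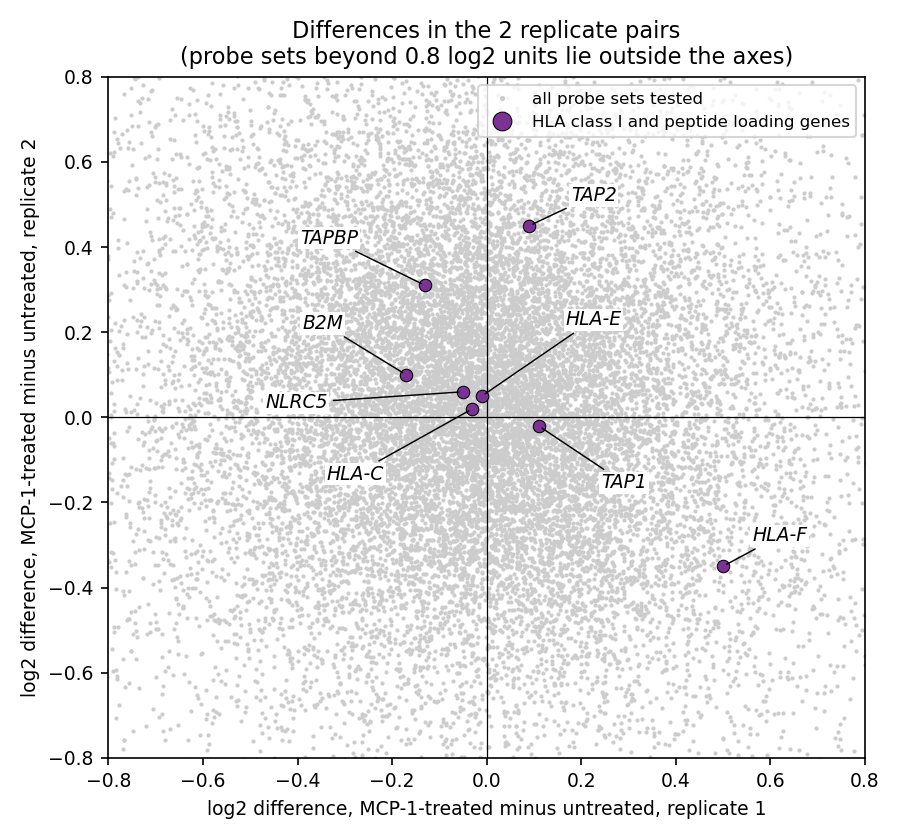
The log2 difference, MCP-1-treated minus untreated, in replicate 1 is plotted across and that in replicate 2 up the page, with 1 point per probe set (grey) and the 8 measured genes in purple. TAP2, at 0.09 and 0.45, is the 1 gene in a quadrant where both pairs go the same way, and HLA-F, at 0.50 and -0.35, lies farthest out among the others.

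Genes that act with these 8 were taken from lists covering other class I and class I-like heavy chains, peptide supply, chaperones of the loading complex, factors at class I promoters, turnover of class I at the surface, interferon receptors and signal transduction, interferon target genes and HLA class II. Of the 96 genes on these lists 89 were measured. At an adjusted p under 0.05 from limma 0 of them rose and 0 fell, and the methods' t-test also gave 0. At an unadjusted p under 0.05, 8 of the 89 were lower in MCP-1-treated cells (8.99%, against 2.36% of all probe sets) and 0 were higher. That count moved with the setting and the test. It was 7 with no block (2.21% of all probe sets were lower) and 6 after quantile normalization (2.46%). With probe sets in the range of negative controls left out it was 9 of 62 (3.57%). By the methods' t-test 0 were lower (2.12% of all probe sets) and 1, NFYC, was higher (2.41%). Fits with an array left out and no block leave a single array in a group, so only their changes are given. The log2 fold change ran from -1.35 to -0.45 for OAS1 and from -1.05 to -0.41 for WARS1 in these fits. With all 4 arrays and the block, the 8 were IRF1, XAF1, WARS1, OAS1, OAS2, IRF9, IFNGR1 and RFXAP. Of these, IRF1 was to be named whatever its value, and XAF1, WARS1, IRF9, IFNGR1 and RFXAP were named for their small p in this fit. OAS1 and OAS2, like NFYC, were chosen after their values were seen.

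Within the ER, the loading chaperone gene CALR (calreticulin) had log2 signals of 16.83 and 16.55 in MCP-1-treated cells, against 16.79 and 16.63 in untreated cells. PDIA3, the gene of the disulfide isomerase ERp57, had 15.28 and 15.16 in MCP-1-treated cells, against 15.11 and 15.26 in untreated cells. Both overlapped between the groups. Of the 8 chaperone genes 0 passed an unadjusted p under 0.05, with a median log2 fold change of -0.004. TAPBPL, the gene of the tapasin relative TAPBPR, which edits peptides outside the loading complex, had a log2 fold change of -0.50 (95% interval -1.04 to 0.04, adjusted p = 1.0 from limma), with 8.43 and 7.94 in MCP-1-treated cells, against 8.82 and 8.55 in untreated cells.

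Of 10 measured genes of peptide supply, 2 had a higher and 8 a lower mean in MCP-1-treated cells. A lower mean was found for 10226 of all 21448 probe sets. The median log2 fold change of the 10 genes was -0.186, against 0.013 over all probe sets, and 0 passed an unadjusted p under 0.05. PSMB8, a subunit of the immunoproteasome, had log2 signals of 11.00 and 11.15 in MCP-1-treated cells, against 11.38 and 11.31 in untreated cells. PSMB9, another such subunit, had 11.28 and 10.67 in MCP-1-treated cells, against 11.44 and 11.17 in untreated cells, and its groups overlapped. ERAP1, which trims peptides in the ER, had 10.42 and 10.74 in MCP-1-treated cells, against 10.81 and 10.80 in untreated cells. The log2 fold changes were -0.27 for PSMB8, -0.33 for PSMB9 and -0.22 for ERAP1, each with an interval that included 0. Single arrays weighed on these values: in fits with no block PSMB9 was at -0.03 without MCP-1-treated replicate 2 and ERAP1 at -0.06 without MCP-1-treated replicate 1. Among 11 other class I and class I-like heavy chain genes 0 passed an unadjusted p under 0.05, with a median of -0.048. MR1, which presents vitamin metabolites, had a log2 fold change of -0.48 (95% interval -1.04 to 0.08). Among the 8 genes of surface turnover the changes ran from -0.08 to 0.19, and 0 passed.

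The factors at class I promoters did not move together. IRF1, an activator induced by interferon-γ that binds IRF elements such as those printed above, had log2 signals of 9.36 and 9.0 in MCP-1-treated cells, against 10.24 and 10.32 in untreated cells. Both MCP-1-treated arrays lay below both untreated ones, as they did for 3263 of all 21448 probe sets. Its log2 fold change was -1.10 (standard error 0.25, 95% interval -1.66 to -0.54), with an unadjusted p = 0.00123 and an adjusted p = 0.551 from limma, so it failed the threshold over all probe sets. The limma adjusted p was 0.00823 with probe sets below the 90th percentile of negative control means left out. With a variance prior that follows signal level and is estimated robustly, the limma adjusted p was 0.000893. The limma adjusted p was 1.0 with no replicate block, after centring and after quantile normalization. The methods' paired test gave an unadjusted p = 0.128, but with 2 pairs that test has 1 degree of freedom and little power. RFX5, of the complex that holds NLRC5 at the X box, had 10.31 and 9.91 in MCP-1-treated cells, against 9.88 and 10.01 in untreated cells. RFXAP, of the same complex, had 7.57 and 7.08 in MCP-1-treated cells, against 7.99 and 8.13 in untreated cells. The groups overlapped for RFX5. For RFXAP, which was named for its small p, the MCP-1-treated arrays lay below the untreated ones, again as for 3263 of all 21448 probe sets. The log2 fold change of RFXAP was -0.73 (adjusted p = 0.957 from limma). The median over the 12 measured factors was 0.003.

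Among the 20 measured interferon target genes, which include IRF1, 8 had a higher and 12 a lower mean in MCP-1-treated cells. A lower mean was found for 10226 of all 21448 probe sets. The median log2 fold change over the list was -0.124. At an unadjusted p under 0.05 from limma 5 were lower (2.36% of all probe sets were) and 0 were higher. For 8 of the 20 the mean signal was not above the 90th percentile of negative control means. The largest rise was 0.43 for GBP1 (95% interval -0.12 to 0.99), which was named after its value was seen. XAF1, a pro-apoptotic interferon-induced gene, had log2 signals of 8.13 and 7.47 in MCP-1-treated cells, against 8.85 and 9.36 in untreated cells. WARS1, the tryptophanyl-tRNA synthetase gene, an interferon-γ target, had 12.94 and 12.30 in MCP-1-treated cells, against 13.41 and 13.30 in untreated cells. For both genes, which were named for their small p in these data, every MCP-1-treated array lay below every untreated one. The same held for 3263 of all 21448 probe sets. The log2 fold change was -1.30 for XAF1 (95% interval -1.97 to -0.63, adjusted p = 0.561 from limma) and -0.73 for WARS1 (95% interval -1.30 to -0.17, adjusted p = 0.957 from limma). With a variance prior that follows signal level and is estimated robustly both passed, at adjusted p of 0.000372 for XAF1 and 0.00695 for WARS1 from limma. With no block, after centring and after quantile normalization the adjusted p from limma was 1.0 for both. The methods' paired test, of little power with 2 pairs, gave unadjusted p of 0.271 for XAF1 and 0.221 for WARS1. In the fit that lacked the block and MCP-1-treated replicate 2, WARS1 had a log2 fold change of -0.41. OAS1, with a log2 fold change of -0.90, differed by -1.76 and -0.05 in the replicate pairs, was below background on 3 of 4 arrays and had an unadjusted p = 0.0568 from limma with no block. OAS2, at -0.67, was below background on all arrays.
Of the genes of interferon signalling, IFNGR1, a chain of the interferon-γ receptor, had 8.16 and 8.31 in MCP-1-treated cells, against 8.61 and 9.03 in untreated cells. IRF9, of the factor that answers type I interferon, had 8.51 and 8.12 in MCP-1-treated cells, against 8.84 and 9.03 in untreated cells. For both, which were named for their small p, the MCP-1-treated arrays lay below the untreated ones, again as for 3263 of all 21448 probe sets. The log2 fold changes were -0.58 for IFNGR1 and -0.61 for IRF9, with adjusted p of 0.979 and 0.975 from limma. The intervals of IRF1 and XAF1 lay below 0, while those of HLA-C, HLA-E, HLA-F, B2M, TAP1, TAP2 and TAPBP included it, and the difference between the changes was not tested.

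**Figure D3:**
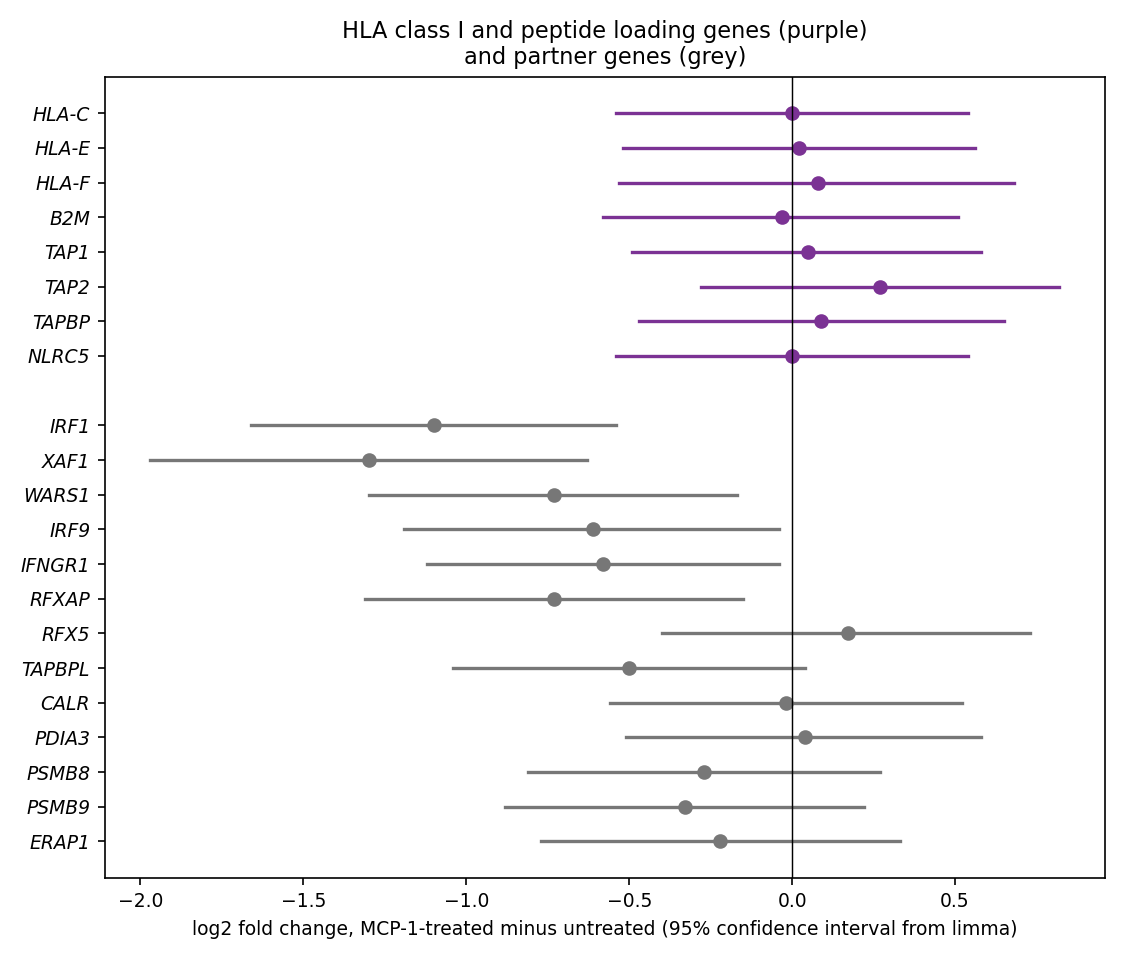
The log2 fold change, MCP-1-treated minus untreated, is plotted with its 95% confidence interval from limma for the 8 measured HLA class I and peptide loading genes (purple) and for 13 partner genes (grey). The purple points lie between -0.03 and 0.27 with intervals across 0, and IRF1 and XAF1 lie at -1.10 and -1.30.

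**Figure D4:**
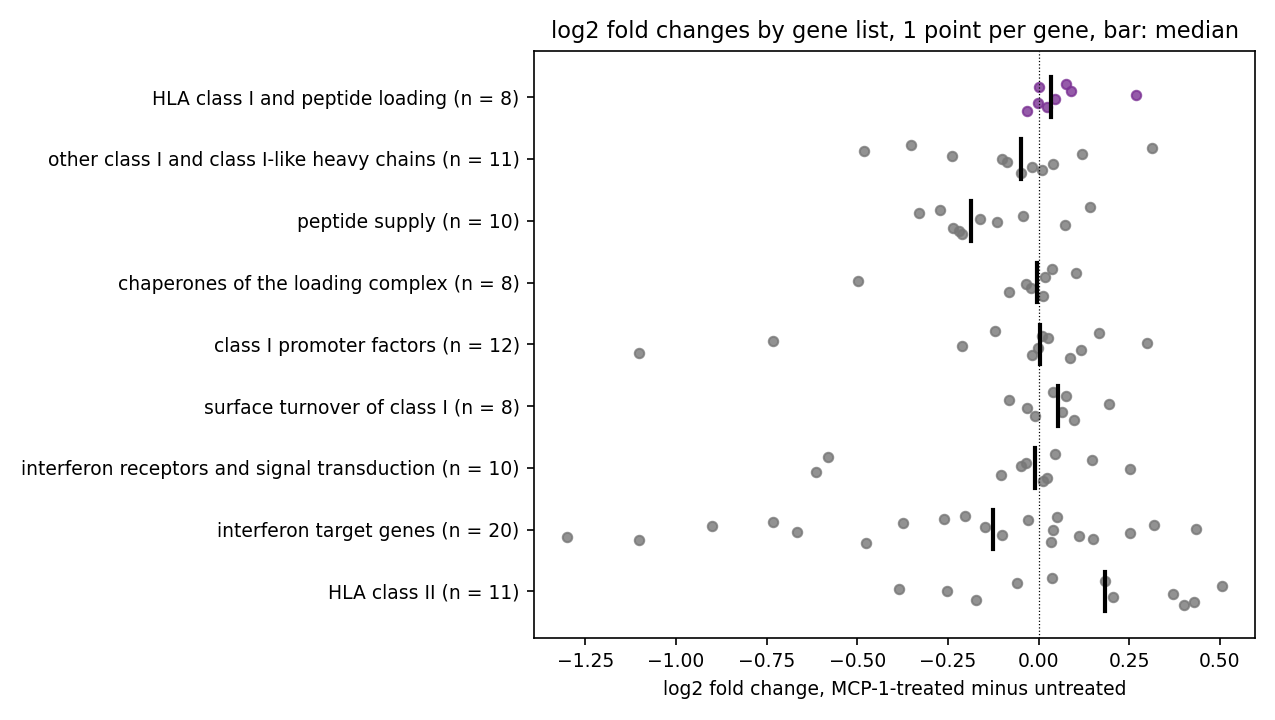
Each point is the log2 fold change, MCP-1-treated minus untreated, of 1 gene of a list, and the bar is the list's median. The HLA class I and peptide loading genes span -0.03 to 0.27, and the interferon target genes span -1.30 to 0.43.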

How the data were processed

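The authors scanned Clariom S arrays of 2 MCP-1-treated and 2 untreated dishes of 786-O cells, processed the scans with Affymetrix Expression Console 1.4 (Signal Space Transformation and RMA), and deposited 1 table of log2 signals, with no detection calls or genome build. That normalization was kept. Of 24351 probe sets, 2903 controls were left out. Symbols came from the platform's gene table (17709 probe sets with 1 symbol, 3739 with none, none with several). The fit was made by limma 3.58.1 under R 4.3.3, leaving 1 residual and 9.60 prior degrees of freedom, and the script was tested on simulated data. Up to 3 genes of each list with the smallest p could be named, plus IRF1, RFX5, CALR, PDIA3, ERAP1, PSMB8 and PSMB9. The members, lists and tests were chosen with earlier results of these data known. The fit was repeated without the block, with dim probe sets left out and after centring or quantile normalization. A variance prior that follows signal level and is estimated robustly was also used. Further runs used named genes with 1 row each, each array left out (then with no block) and each replicate pair. The methods' t-test and p with fold thresholds of 1.5 or 2 were applied. The number of arrays limits precision. Figures used Python 3.11.15 and matplotlib 3.10.9.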

Additional observations from a re-analysis of the deposited data

How the results depend on the processing

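In the fit with no replicate block 0 of the 8 measured genes passed an adjusted or an unadjusted p under 0.05, as in every other setting fitted, and 0 passed the rules of p with a fold of 1.5 or 2. Nothing in the labels says that equal replicate numbers share a dish or day, and deviations of same-numbered arrays correlated at -0.0466 across probe sets. The median log2 fold change of the measured genes, 0.034, ran from -0.045 to 0.116 with each array left out and no block, and was -0.016 in replicate pair 1 alone. TAP2 was positive in all of these settings, while the signs of values near 0 turned. Quantile normalization gave 0.04 for B2M and -0.04 for NLRC5, and centring gave -0.01 for NLRC5. Replicate pair 1 alone gave -0.01 for HLA-E, -0.13 for TAPBP, -0.05 for NLRC5 and 0.04 for CALR. Replicate pair 2 alone gave 0.02 for HLA-C, -0.35 for HLA-F, 0.10 for B2M, -0.02 for TAP1, -0.09 for RFX5 and -0.10 for PDIA3. With each array left out and no block, log2 fold changes ran from -0.11 to 0.11 for HLA-C, -0.08 to 0.12 for HLA-E, -0.18 to 0.33 for HLA-F, -0.21 to 0.14 for B2M, -0.04 to 0.13 for TAP1, -0.08 to 0.25 for TAPBP, -0.30 to 0.30 for NLRC5, -0.03 to 0.37 for RFX5, -0.16 to 0.12 for CALR and -0.04 to 0.11 for PDIA3. The same ranges were -0.63 to -0.03 for PSMB9, -0.38 to -0.06 for ERAP1, -0.75 to -0.25 for TAPBPL, -1.05 to -0.41 for WARS1, -1.35 to -0.45 for OAS1, -0.79 to -0.37 for IFNGR1, -1.28 to -0.92 for IRF1 and -1.63 to -0.97 for XAF1. Of the pathway lists 0 genes passed the adjusted threshold (0.0326% of all probe sets). With probe sets in the range of negative controls left out 2 passed (IRF1 and XAF1), where 49 of 10871 probe sets passed (0.451%). With a variance prior that follows signal level and is estimated robustly 3 passed (IRF1, XAF1 and WARS1), where 69 of 21448 probe sets passed (0.322%). Both settings were added for the lists after seeing the data. The causes of these shifts were not tested. Signals in the range of the negative controls, as for NLRC5, carry no measurable change.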

Other observations

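The HLA class II genes, which present peptides to CD4 T cells and are normally confined to antigen-presenting cells unless induced, were near background in both groups. Of 11 measured genes, 10 had a mean signal under the 90th percentile of negative control means, among them HLA-DRA and the class II transactivator CIITA. CD74, the invariant chain that guides class II molecules, was above it, with log2 signals of 7.97 and 7.74 in MCP-1-treated cells, against 7.57 and 7.77 in untreated cells. The lowest p among the class II genes were those of HLA-DOA, HLA-DQA1 and HLA-DQB1, at log2 fold changes of 0.51, 0.40 and 0.37, all within background and none past an unadjusted p under 0.05 from limma. HLA-G, a heavy chain usually restricted to the placenta and close in sequence to the classical ones, had 11.98 and 11.92 in MCP-1-treated cells, against 11.97 and 11.97 in untreated cells. HLA-G, CD74, HLA-DRA and CIITA were chosen to be named after their values were seen.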
